A study of Homo sapiens with 7 samples.

Results

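Broad MeRIP peaks are the intervals of 1000 nt or more in the lists of antibody-captured m6A peaks of HEK-293T cells. A peak's length is the sum of its blocks, the pieces that lie on either side of splice junctions. By this rule 1002 of 20760 peaks in MeRIP replicate 1 (4.83%) and 989 of 20216 in MeRIP replicate 2 (4.89%) were broad, 1991 of 40976 MeRIP peaks in all. They were chosen by their measured length, so every length below is a description and not a finding.

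HEK-293T is an established line of human embryonic kidney cells that expresses the SV40 large T antigen, and all libraries came from this line. The sample titles call the captured libraries treated and the inputs control. This is read here as capture of the RNA and not as a treatment of the cells. MeRIP_IP (2 libraries, labelled polyA RNA) is RNA fragments bound by an antibody against m6A. ORL_IP (2 libraries) is RNA fragments modified step by step with NO/O2, TDO and the probe BA, pulled down with streptavidin and released with DTT. The label of ORL_IP replicate 1 gives total RNA and that of replicate 2 polyA RNA, so RNA type and replicate cannot be told apart. The protocol text that all samples share describes oligo(dT) selection, which does not match the total RNA label, so the RNA type of replicate 1 is uncertain. The labels list 7 samples, and the 3 input samples were not analysed here. The labels do not say whether replicates came from separate cultures, and a p-value here covers no more than the spread of the libraries, which may be technical. Of 7 marker genes of other cell types, 2 held a peak and 0 a broad one, and a peak list gives no expression level, so the identity of the line was not checked further.

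N6-methyladenosine (m6A) is the commonest internal modification of mRNA. A writer complex built around METTL3 and METTL14 sets it, with adaptors such as RBM15 and RBM15B that bring the complex to RNA. ALKBH5 and FTO remove it, and YTH-domain proteins such as YTHDF1 and YTHDF2 bind it. In mammalian mRNA the mark is known to concentrate near stop codons, in 3′ untranslated regions and in unusually long internal exons, and it often sits in the sequence GGACT as written in DNA letters. An antibody captures RNA fragments and not single bases, so several nearby marks can merge into 1 long peak.

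The sequences that could be read for broad peaks were those of RefSeq promoter windows (GRCh38.p14, 250 nt before to 50 nt after a gene's start) and miRNA hairpins. The GGACT sites of those windows that lay in a broad peak and under an m6A-ORL peak are shown because they are the readable places where all of these signals met. Capitals mark GGACT, each sequence runs 5′ to 3′ on the transcript strand, and both MeRIP lists held a broad peak over each site.
ZIC2 chr13:99981784-99981800 (+): GGACTcttctcctcctc
SNX33 chr15:75649017-75649045 (+): gagtgcattcttGGACTgccttgtgagca
CCDC142 chr2:74482928-74482956 (-): cccgcgactcccGGACTggagaaaacggc
SLMAP chr3:57757112-57757140 (+): cactccgggcgaGGACTggcggtggctgc
SLMAP chr3:57757166-57757194 (+): ttcggcccaaaaGGACTttcctggccgcg
The ZIC2 site lay under a peak of m6A-ORL replicate 2, and the SNX33, CCDC142 and SLMAP sites under peaks of replicate 1. ZIC2 encodes a zinc-finger transcription factor, SNX33 a sorting nexin and SLMAP a membrane-associated protein. No readable GGACT site in a broad peak lay under peaks of both m6A-ORL lists. Under m6A-ORL replicate 1 lay 4 of the 20 readable sites of MeRIP replicate 1 and 4 of the 28 of MeRIP replicate 2. Under m6A-ORL replicate 2 lay 1 of 20 and 1 of 28. Of all readable bases of broad peaks, 10.7% and 9.69% lay under m6A-ORL replicate 1 and 10.7% and 8.66% under replicate 2. Sites of AAACT, a contrast motif, counted 0 of 6 and 0 of 9, and 1 of 6 and 2 of 9.

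Across the readable stretches, GGACT on the transcript strand stood 20 times in the broad peaks of MeRIP replicate 1 (0.834 per kb) and 28 times in those of replicate 2 (1.02 per kb). In the other MeRIP peaks it stood at 1.43 and 1.44 per kb. The contrast motif AAACT gave 0.2503 and 0.329 per kb in broad peaks against 0.456 and 0.487 per kb in the other peaks. The first 50 nt of a gene lay wholly in a broad peak for 110 windows of replicate 1 and 121 of replicate 2, and 4 (3.64%, 95% exact Clopper-Pearson interval 1.00 to 9.05) and 6 (4.96%, 1.84 to 10.5) of these held GGACT. Among all 35116 windows the share was 4.90%. These windows cover gene starts only, so the motif content of most broad peaks was not read.

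The miRNA hairpins of RefSeq that lay inside a broad peak in both MeRIP lists were MIR671, in the peak named CHPF2, and MIR6501, in SON. They are shown because their sequences are readable and lie within a broad peak. Only the coordinates overlap, and whether the peak belongs to the miRNA or to the host transcript was not tested. Capitals mark the seed, bases 2 to 8.
hsa-miR-671-5p chr7:151238449-151238471 (+): aGGAAGCCcuggaggggcuggag
hsa-miR-671-3p chr7:151238488-151238508 (+): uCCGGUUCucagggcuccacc
hsa-miR-6501-5p chr21:33550664-33550685 (+): aGUUGCCAgggcugccuuuggu
hsa-miR-6501-3p chr21:33550705-33550727 (+): cCAGAGCAgccugcgguaacagu
The 4 seeds differ from one another. The CHPF2 peak was 1432 nt in replicate 1 and 1402 nt in replicate 2, and 1 peak of m6A-ORL replicate 1 lay on the hairpin itself. The SON peak was 1379 and 1438 nt and held 3 peaks of m6A-ORL replicate 1 and 2 of replicate 2, of which 0 touched the hairpin. MIR4683 in the FZD8 peak of MeRIP replicate 1 and MIR6727 in the INTS11 peak of replicate 2 lay in a broad peak of 1 list.

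Broad peaks had a median length of 1345 nt in MeRIP replicate 1 (quartiles 1134 and 1709) and 1320 nt in replicate 2 (1137 and 1709). The other peaks had medians of 211 and 210 nt. Lengths of 3000 nt or more were rare, with 20 peaks in replicate 1 and 27 in replicate 2. The broad peaks held 21.9% and 22.3% of all peak bases of their lists. Just inside the threshold stood RTL8C with 1004 nt and NRARP, a Notch-regulated ankyrin repeat gene, with 1010 nt, both with the same length in both lists. Just outside stood UFSP1 with 995 nt and CIRBP-AS1 with 994 nt, also the same in both.

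The longest peak lay in PLEC (ENSG00000178209.15), the gene of the cytoskeletal linker plectin, on the minus strand of hg38 chromosome 8. It covered 9919 nt in 3 blocks in MeRIP replicate 1 (143915866 to 143926791) and 9949 nt in replicate 2 (143915866 to 143926821). The second longest of each list reached 3894 and 3987 nt. PCDH7, a protocadherin, had 3894 and 3924 nt in 1 block, ZNF865, a zinc-finger gene, had 3856 nt in both lists, and PRR12 had 3747 and 3987 nt. SH3PXD2A, a scaffold protein of podosomes, had 3720 and 3960 nt, HELZ2, a helicase gene, 3504 and 3744 nt, and ZNF316 3562 and 3861 nt. Other peaks among the 10 longest of a list were shorter or in pieces in the other. PKD1, a polycystic kidney disease gene, had 3869 nt in replicate 2 and 2400 and 1320 nt in replicate 1. The gene has near-identical copies, and whether these share its reads was not tested. WDR81 had 3837 nt in replicate 2 and 2938 nt in replicate 1, and LRRC14 had 3409 nt in replicate 1 and 1795 and 1586 nt in replicate 2.

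A single block made up 57.6% of broad peaks in replicate 1 and 58.3% in replicate 2, against 84.4% and 85.1% of the other peaks. Chromosome 19 held 12.7% (95% exact interval 10.7 to 14.9) and 13.9% (11.8 to 16.2) of the broad peaks, and 8.65% and 8.40% of the others. Chromosome 16 held 9.78% (8.01 to 11.8) and 9.61% (7.84 to 11.6) against 6.64% and 6.64%. For chromosome 17 the shares were 8.88% and 9.10% against 7.41% and 7.40%. The authors' score, which is lower for a better peak, placed 92.7% and 94.3% of the broad peaks among the better-scored 25% of their list. For the other peaks this share was 21.6% and 21.5%. Part of the broad peaks, 76 in replicate 1 (7.58%) and 78 in replicate 2 (7.89%), overlapped another broad peak of the same list, and merging them left 963 and 949 separate regions.

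Every broad peak was overlapped by at least 1 peak of the other MeRIP list on the same strand, 1002 of 1002 (lower bound of the 95% exact interval 99.6%) and 989 of 989 (lower bound 99.6%). The same held for 83.6% and 86.0% of all MeRIP peaks. Breadth itself recurred less fully, since a broad peak of the other list met 877 of those in replicate 1 (87.5%, 85.3 to 89.5) and 873 in replicate 2 (88.3%, 86.1 to 90.2). Longer peaks met a broad partner more often, but a partner had to reach 1000 nt too, so this does not compare reproducibility between lengths. The share was 75.5% and 77.6% at 1000 to under 1200 nt, 96.4% and 96.2% at 1500 to under 2000 nt, and 99.3% in both lists from 2000 nt.

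The other list covered a median of 98.8% of the bases of a broad peak of replicate 1 and all bases of the median one of replicate 2, with lows of 47.4% and 63.0%. Both outer edges were the same nucleotide as those of the best partner for 205 peaks (20.5% and 20.7%), and both lay within 100 nt for 64.9% and 65.2%. SOX4, a transcription factor of progenitor cells, had 3106 nt with identical edges in both lists (chromosome 6, 21593932 to 21597037, plus strand). JUN, which forms AP-1 together with FOS proteins, had 2610 nt with identical edges (chromosome 1, 58781508 to 58784117, minus strand), as had RBM15B with 2908 nt (chromosome 3, 51391285 to 51394192, plus strand).

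The broad peaks without a broad partner numbered 125 in replicate 1 and 116 in replicate 2. Their longest overlapping peak had a median length of 840 and 838 nt. It reached 800 nt in 77 and 67 cases. In 86 and 83 cases the other list held 2 or more peaks of the same gene ID there. Outside this group, broad peaks with a broad partner could also be whole in 1 library and in pieces in the other. RBM15 had 1138 and 1557 nt in replicate 1 and 2754 nt in replicate 2. MAP1A, a microtubule-associated protein gene, had 2280 nt in replicate 1 and 1111 and 1050 nt in replicate 2.

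**Figure D1:**
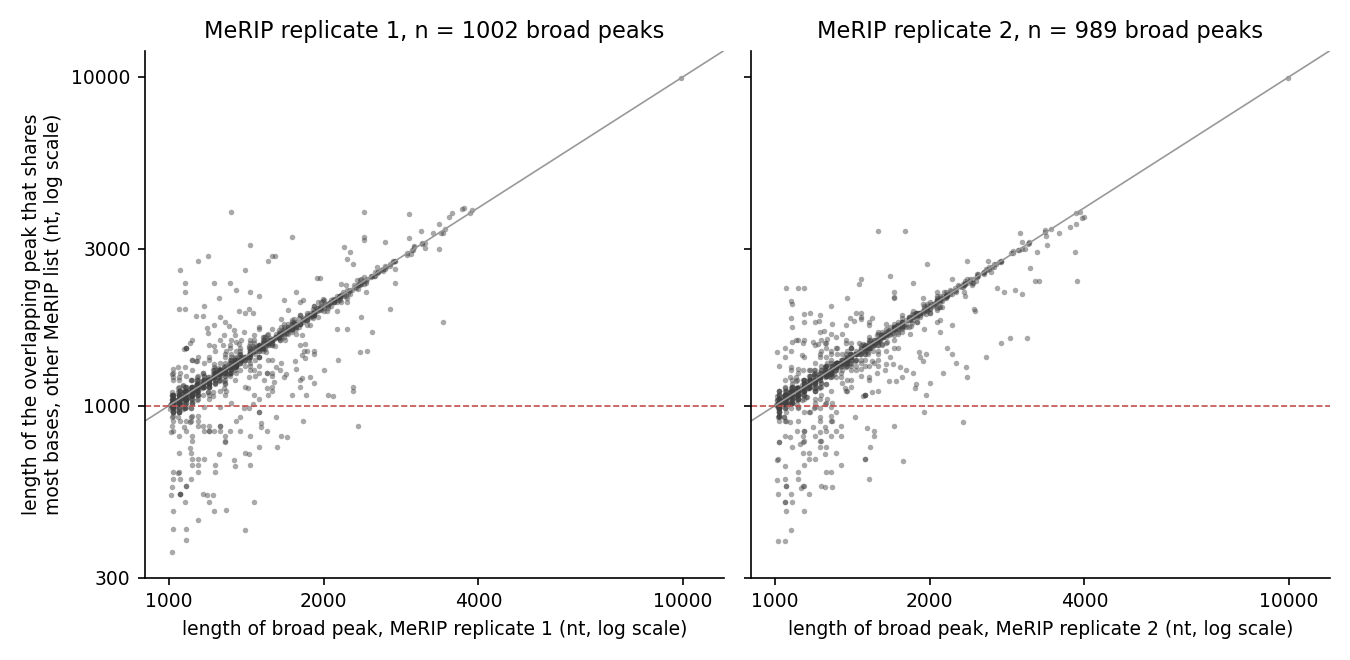
Length of each broad peak (x axis, nt, log scale) against the length of the overlapping peak of the other MeRIP list that shares most bases with it (y axis, nt, log scale), for MeRIP replicate 1 (left, 1002 peaks) and replicate 2 (right, 989). The grey line marks equal lengths and the dashed line 1000 nt; most points lie along the grey line, those below the dashed line are mostly broad peaks near the threshold, and the isolated point at the upper right is PLEC with 9919 and 9949 nt.

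The broad peaks belonged to 919 gene IDs in replicate 1 and 906 in replicate 2. Of these, 807 were shared, which is 87.8% of the first list and 89.1% of the second. Protein-coding genes made up 96.2% and 96.1% of the broad peaks whose gene had a name, and lncRNA genes 3.14% and 3.20%. For the other peaks these shares were 92.3% and 92.0%, and 5.92% and 6.13%. Among named genes with any peak, 10.4% in replicate 1 and 10.3% in replicate 2 held a broad one, the background for the lists that follow. The lists were chosen with earlier results of these data known, so their counts are descriptions and show nothing particular to a list.

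Of the genes chosen for having 1 or few exons, 15 of the 22 with a peak held a broad one in each MeRIP list, 14 of them in both. IRS4, an adaptor of insulin receptor signalling, had 2999 and 3029 nt, FOXC1, a forkhead transcription factor, 2636 and 2666 nt, and FOXD1 2003 and 2093 nt. The early response genes, which are switched on within minutes of a stimulus, held broad peaks in 6 of 18 and 5 of 20 cases. These included JUN, IER5 with 1885 nt in both lists, JUND with 1597 nt and JUNB with 1500 nt in both.

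Genes with a long internal coding exon held broad peaks in 11 of 29 and 10 of 29 cases. PRRC2A had 2159 and 2339 nt, PRRC2B 2041 and 2011 nt, and BCORL1, a transcriptional corepressor gene, 1947 and 1857 nt. KMT2D, a histone H3 lysine methyltransferase, had 3 broad peaks in each list, of 1021, 1141 and 1471 nt and of 1291, 1201 and 1441 nt. Chromatin regulator genes counted 14 of 30 and 12 of 31. SETD1B and KMT2B, histone H3 lysine methyltransferases, had 2693 and 1975 nt, and 2518 and 2548 nt, as their longest. CREBBP and EP300, related histone acetyltransferases, had 2248 and 2188 nt, and 2130 and 1380 nt. ARID1A, a subunit of the SWI/SNF remodeller chosen after its values were seen, had a broad peak of 1558 nt near the start and another of 1859 nt near the end of its span in both lists, with midpoints at 0.879% and 97.5% of the span.

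ZNF genes, which mostly encode zinc-finger DNA-binding proteins, held broad peaks in 44 of 310 and 41 of 306 cases, 39 of them in both lists. Beside ZNF865 and ZNF316, ZNF503 had 2606 and 2576 nt and ZNF775 2541 nt in both. HOX genes, the body-plan transcription factors, counted 3 of 24 and 1 of 23, and HOXD13 with 1253 and 1283 nt was broad in both, HOXD9 (1099 nt) and HOXC9 (1071 nt) in replicate 1. Among the lncRNAs looked up, NORAD alone was broad, in 1 of 5 and 1 of 6 cases, with 1224 nt and identical edges in both lists.

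Of the m6A writers, erasers and readers, 5 of the 19 genes with a peak held a broad one in each list, and all 5 did so in both. The writer adaptors were RBM15B with 2908 nt in both lists and RBM15 with the split interval given above. The eraser ALKBH5 had 1042 and 1012 nt, near the 5′ end of its span (midpoint at 1.84% and 1.79%). The readers YTHDF1 and YTHDF2 had 1499 and 1529 nt, and 1253 and 1283 nt. In MeRIP replicate 1 these genes held 6 broad peaks, of which 6 held a peak of m6A-ORL replicate 1 and 5 a peak of replicate 2. Over all broad peaks of that list the shares were 64.1% and 55.3%. The 48 broad peaks of ZNF genes counted 36 and 28, the 21 of chromatin regulator genes 19 and 19, and the 15 of genes with a long internal exon 14 and 12. The 15 of genes with 1 or few exons counted 10 and 12, the 6 of early response genes 5 and 6, the 3 of HOX genes 2 and 3, and the 1 of NORAD 1 and 1. KMT2D stands in 2 of these lists.

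Position was measured along the RefSeq gene span, introns included, for the 891 and 874 broad peaks with a named gene. The midpoint lay in the last 10% of the span for 29.5% (95% exact interval 26.5 to 32.6) of the broad peaks in replicate 1 and 29.6% (26.6 to 32.8) in replicate 2. Among all MeRIP peaks of named genes this share was 36.6% in replicate 1 and 36.6% in replicate 2. Near the start, the first 10% had 9.99% and 9.84% of the broad peaks against 15.0% and 15.4% of the other peaks. The part between held 60.5% and 60.5% against 48.0% and 47.7%. These intervals cover counting error only, with 2 libraries, and a long interval has its midpoint farther from an end than a short one that reaches the same end.

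By their outer edges, 13.8% of broad peaks in replicate 1 and 13.8% in replicate 2 came within 100 nt of the annotated 3′ end. The other peaks did so in 4.49% and 4.53% of cases. For the 5′ end the shares were 15.8% and 16.8% against 6.95% and 7.20%. A longer interval reaches an end more often wherever its centre lies, so these shares do not compare a preference for gene ends. Broad peaks covered at least 50% of the gene span in 8.42% and 9.15% of cases. Genes with a broad peak had a median span of 20542 and 19285.5 nt, and genes with other peaks 29095 and 28890 nt. SOX4, JUN, RBM15B and IRS4 had midpoints at 35.6%, 37.9%, 22.0% and 14.3% of the span in replicate 1. The peak of RBM15B began at the first annotated base of the gene, and that of JUN ran past the annotated 5′ end and had a length of 80.1% of the span, so for these only the midpoint lay in the middle part. DAG1, which encodes dystroglycan, had its midpoint at 95.1%.

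**Figure D2:**
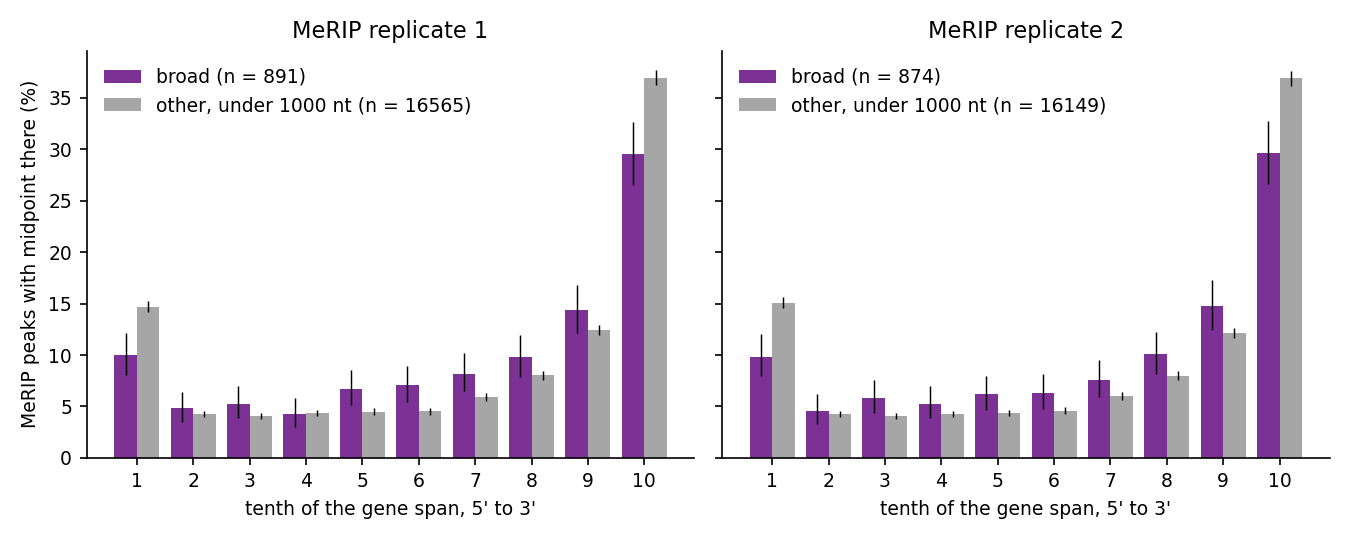
Share of MeRIP peaks (y axis, percent) whose midpoint fell in each 10% step of the gene span from 5′ to 3′ (x axis), for broad peaks (purple) and other peaks (grey) of MeRIP replicate 1 (left) and replicate 2 (right), with 95% exact binomial intervals as error bars. The last step held the most peaks of both kinds, 29.5% and 29.6% of the broad ones and 37.0% and 36.9% of the others.

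A peak of m6A-ORL replicate 1 overlapped 642 of the 1002 broad peaks of MeRIP replicate 1 (64.1%, 61.0 to 67.0) and 626 of the 989 of MeRIP replicate 2 (63.3%, 60.2 to 66.3). Over all MeRIP peaks the shares were 25.3% and 25.0%. A peak of m6A-ORL replicate 2 overlapped 55.3% (52.1 to 58.4) and 55.4% (52.2 to 58.5), against 14.8% and 14.5% of all MeRIP peaks. Peaks of both m6A-ORL lists stood in 41.2% and 40.8% of the broad peaks, of replicate 1 alone in 22.9% and 22.4%, and of replicate 2 alone in 14.1% and 14.6%. The remaining 21.9% and 22.1% held none, as did 68.8% and 69.3% of the other MeRIP peaks. Of the other MeRIP peaks, 4.82% and 4.73% held peaks of both m6A-ORL lists. Where a broad peak held both, peaks of the 2 lists overlapped each other in 276 of 413 cases (66.8%) and 275 of 404 (68.1%). A longer interval offers more room, so these shares do not compare densities.

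Some m6A-ORL peaks overlap each other within a list (7.59% of replicate 1 and 6.54% of replicate 2), so the number of separate stretches is given for named peaks. At least 2 separate stretches of m6A-ORL replicate 1 stood in 30.8% and 30.7% of the broad peaks, and at least 3 in 9.48% and 9.61%. For m6A-ORL replicate 2 these shares were 26.6% and 26.7%, and 8.98% and 8.90%. The most in 1 broad peak was 6 for replicate 1 and 7 for replicate 2. Neighbouring stretches lay a median of 493.25 and 493.0 nt apart in replicate 1 and 523.0 and 524.5 nt apart in replicate 2, midpoint to midpoint.

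SOX4 held 6 stretches of m6A-ORL replicate 1, which covered 49.2% of its 3106 nt, and 3 of replicate 2, which covered 82.7%. One of the latter ran for 1852 nt (21594529 to 21596380). In JUN, 5 stretches of replicate 1 covered 61.1% and 3 of replicate 2 covered 84.0%, with a single peak of 1740 nt (58781568 to 58783307). IRS4 held 4 and 5 stretches in both MeRIP lists, covering 71.1% and 52.2% of the peak of MeRIP replicate 1 (chromosome X, 108732692 to 108735690, minus strand). In these 3 genes both chemical libraries marked the same broad interval.

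RBM15B held 3 and 6 stretches, covering 37.2% and 51.8%, and those of replicate 1 began at nt 1350 counted from the 5′ end of the peak, those of replicate 2 at nt 61. DAG1 held 5 and 4 stretches, covering 28.6% and 28.5% of 2638 nt. C15orf39 held 5 and 3 in 3443 nt, covering 50.6% and 23.5%. SCAF1, an SR-related splicing factor gene, held 4 and 4 in 3386 nt of MeRIP replicate 1, and SH3PXD2A 5 and 4 in 3720 nt. LRFN1, a synaptic adhesion gene, held 4 and 7 listed peaks that formed 2 and 5 separate stretches. JUND held 3 listed peaks of each library that formed 2 stretches each, covering 24.2% and 78.5% of its 1597 nt. PLEC, the longest peak, held 0 stretches of replicate 1 and 7 of replicate 2, and the latter covered 9.43% of its 9919 nt. No broad peak held more than 7 stretches of that library, a number that MAP1S (below) also reached.

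Other broad peaks were marked mainly by 1 chemical library. MAP1S, a microtubule-associated protein gene, held 1 stretch of replicate 1 and 7 of replicate 2, covering 2.52% and 36.2% of 2422 nt. IER5 held 0 and 3, covering 27.2% by replicate 2. PCDH7 held 4 and 1. With no m6A-ORL peak of either library, the longest broad peaks of MeRIP replicate 1 with a single gene symbol were SLX4 (2278 nt), a scaffold of DNA repair nucleases, HS6ST1 (2248 nt), a heparan sulfate sulfotransferase, CEP250 (2219 nt), a centrosomal protein gene, and ZNF668 (2212 nt). In MeRIP replicate 2 they were HS6ST1 (2937 nt), EMILIN1 (2579 nt), an extracellular matrix glycoprotein gene, ZSWIM9 (2359 nt), FRAT1 (2322 nt), a Wnt pathway gene, and NOXO1 (2159 nt).

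**Figure D3:**
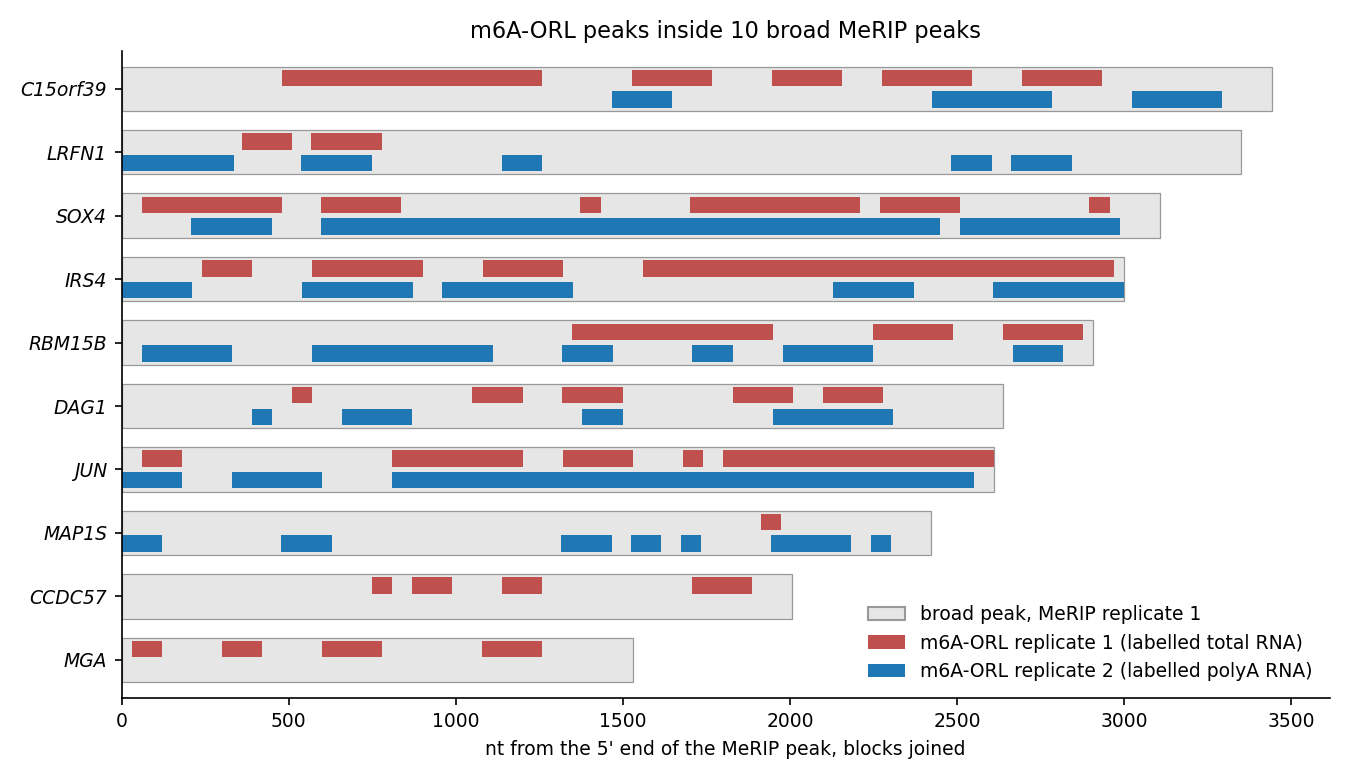
Map of 10 broad peaks of MeRIP replicate 1 (grey bars) with the m6A-ORL peaks of replicate 1 (red, labelled total RNA) and replicate 2 (blue, labelled polyA RNA) inside them; the x axis is distance from the 5′ end of the MeRIP peak in nt with blocks joined. In SOX4 and JUN a single peak of m6A-ORL replicate 2, of 1852 and 1740 nt, covers most of the interval, while CCDC57 and MGA, chosen after their values were seen, hold 4 peaks of replicate 1 and 0 of replicate 2.

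Density was compared between broad peaks and the other MeRIP peaks. Counting every m6A-ORL peak that shared at least 1 nt, replicate 1 gave 0.771 peaks per kb in broad peaks and 0.973 in the others, a difference of -0.201. Replicate 2 gave 0.658 and 0.521, a difference of 0.138. The mean difference was -0.0318 ± 0.240 peaks per kb (SD, n = 2 m6A-ORL libraries; exact two-sided sign-flip permutation p = 1.0, with 0.5 the smallest p that 2 libraries allow). The 2 libraries pointed in opposite directions, so no common difference was found.

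Other ways of counting moved this value. Counting midpoints instead, because a short peak is met by many m6A-ORL peaks that only touch its edge, gave differences of -0.0745 and 0.218 per kb, with a mean of 0.0718 ± 0.207 (exact permutation p = 1.0). The share of bases under m6A-ORL peaks was 14.3% in broad peaks and 13.6% in the others for replicate 1, and 13.2% and 6.499% for replicate 2, higher in broad peaks in 2 of 2 libraries (mean difference 3.68 percentage points ± 4.22, exact permutation p = 0.5). Against the other MeRIP peaks of the same genes, midpoint density in broad peaks was 0.755 against 0.641 per kb for replicate 1 and 0.642 against 0.493 for replicate 2. The mean difference was 0.131 ± 0.0250 per kb, in the same direction in 2 of 2 libraries (exact permutation p = 0.5).

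By length class, the libraries differed in course. Midpoints of m6A-ORL replicate 1 in MeRIP replicate 1 stood at 0.943 per kb in peaks of 200 to under 300 nt, 0.755 at 1000 to under 1500 nt and 0.725 from 2000 nt. Those of m6A-ORL replicate 2 stood at 0.417, 0.608 and 0.741 per kb in the same classes. In MeRIP replicate 2 the values were 0.911, 0.761 and 0.691 for the first and 0.403, 0.604 and 0.725 for the second. From 2000 nt, peaks of m6A-ORL replicate 2 covered 17.9% and 17.4% of the bases of broad peaks, and those of replicate 1 14.2% and 13.7%. Labelled RNA type and replicate cannot be told apart here. The lists also differed in length (11022 and 7661 peaks). With both at equal length, the differences in peaks per kb between broad and other MeRIP peaks were -0.162 for replicate 1 and 0.138 for replicate 2, still of opposite sign.

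**Figure D4:**
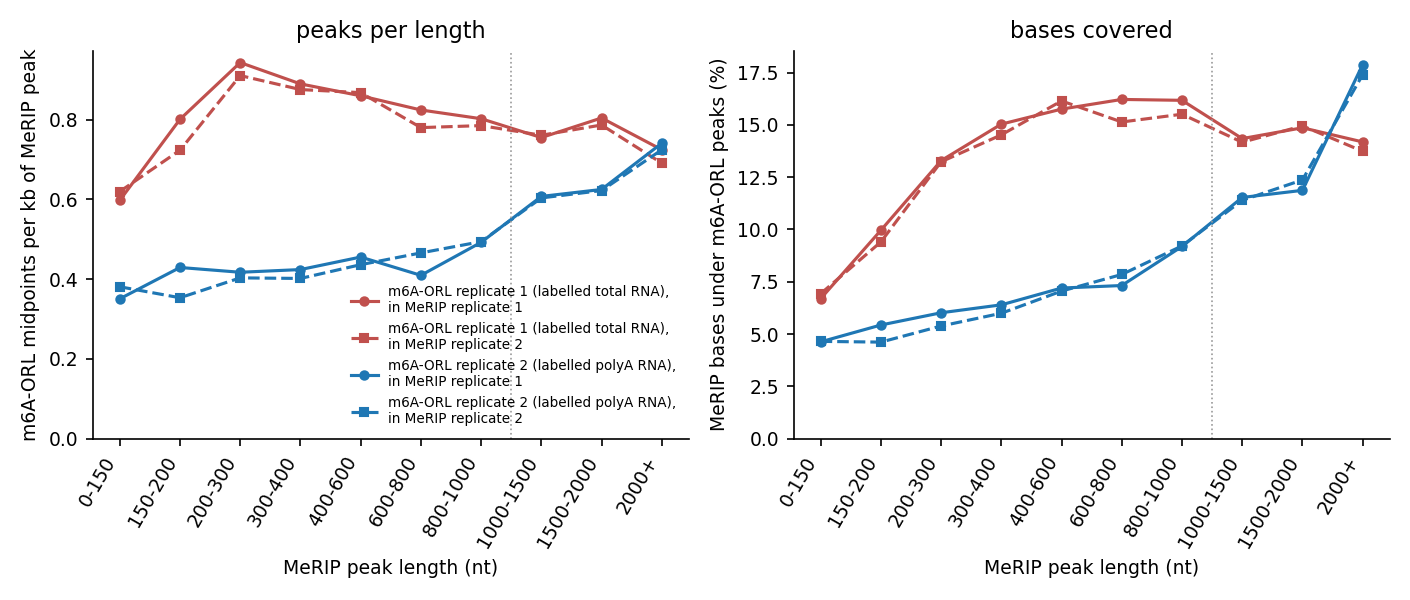
Midpoints of m6A-ORL peaks per kb of MeRIP peak (left) and percent of MeRIP peak bases under m6A-ORL peaks (right) by MeRIP peak length in nt (x axis), for m6A-ORL replicate 1 (red) and replicate 2 (blue) in MeRIP replicate 1 (solid lines, circles) and replicate 2 (dashed lines, squares); the dotted line marks 1000 nt. The blue curves are highest from 2000 nt, at 0.741 and 0.725 per kb, whereas the red curves peak at 200 to under 300 nt, at 0.943 and 0.911 per kb.

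Broad peaks were also split by their number of blocks and by their place in the gene. Of single-block broad peaks, 49.0% and 49.4% held a peak of m6A-ORL replicate 2, against 63.8% and 63.8% of those with 2 or more blocks. For m6A-ORL replicate 1 the shares were 64.0% and 62.4% against 64.2% and 64.6%. These shares also depend on length. By midpoints per kb, m6A-ORL replicate 1 gave 0.826 and 0.801 in single-block broad peaks against 0.681 and 0.685 in those with 2 or more blocks. For m6A-ORL replicate 2 the values were 0.585 and 0.574 against 0.716 and 0.721, the opposite direction. In the first 10% of the gene span, 50.6% and 48.8% of broad peaks held a peak of replicate 1 and 61.8% and 61.6% a peak of replicate 2. In the last 10% of the span the shares were 63.5% and 64.5% for replicate 1 and 54.8% and 55.2% for replicate 2. For the 89 peaks of the first 10% in MeRIP replicate 1 the 95% exact intervals were 39.8 to 61.3 and 50.9 to 71.9, which overlap. None of these differences was tested.

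On broad peaks a larger share of m6A-ORL peaks met a peak of the other chemical library than on other MeRIP peaks. Of the peaks of m6A-ORL replicate 1 that lay on a broad peak, 33.8% (31.0 to 36.7) in MeRIP replicate 1 and 34.7% (31.9 to 37.6) in replicate 2 were overlapped by a peak of the other m6A-ORL list. On other MeRIP peaks the share was 15.99% and 15.97%. For m6A-ORL replicate 2 the shares were 38.5% and 38.97% against 29.5% and 29.6%. The m6A-ORL peaks on broad peaks had median lengths of 178 and 179 nt for replicate 1 and 151 and 178 nt for replicate 2, against 151 nt on the other MeRIP peaks for both. Many listed lengths moved in steps of about 30 nt, so medians of 151 and of 178 or 179 nt lie about 1 step apart. The chance of such an overlap also depends on how many bases the other library covers. Peaks of m6A-ORL replicate 2 covered 13.2% of the bases of broad peaks and 6.499% of those of the others. For m6A-ORL replicate 1 these were 14.3% and 13.6%. The part of peak length and of this coverage in the overlap was not tested.

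Inside broad peaks the midpoints of m6A-ORL replicate 1 lay toward the 3′ side, with a median position of 57.2% and 57.0% of the length from the 5′ end. Those of replicate 2 were centred, at 49.9% and 50.7%. The first 10% of the length held 4.61% and 5.24% of the midpoints of replicate 1 and the last 10% held 9.75% and 9.68%. Replicate 2 was low in both outer steps, with 7.29% and 7.49% in the first and 5.54% and 6.04% in the last. The 3′ side of the peak centre held 57.2% (54.3 to 60.1) and 56.7% (53.8 to 59.7) of the midpoints of replicate 1, and 49.1% (45.9 to 52.3) and 50.2% (46.9 to 53.4) of those of replicate 2. Most m6A-ORL peaks on a broad peak lay wholly within it, 94.3% and 93.3% for replicate 1 and 92.9% and 91.9% for replicate 2. The mean of the library medians was 53.7% ± 4.77 (SD, n = 2).

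**Figure D5:**
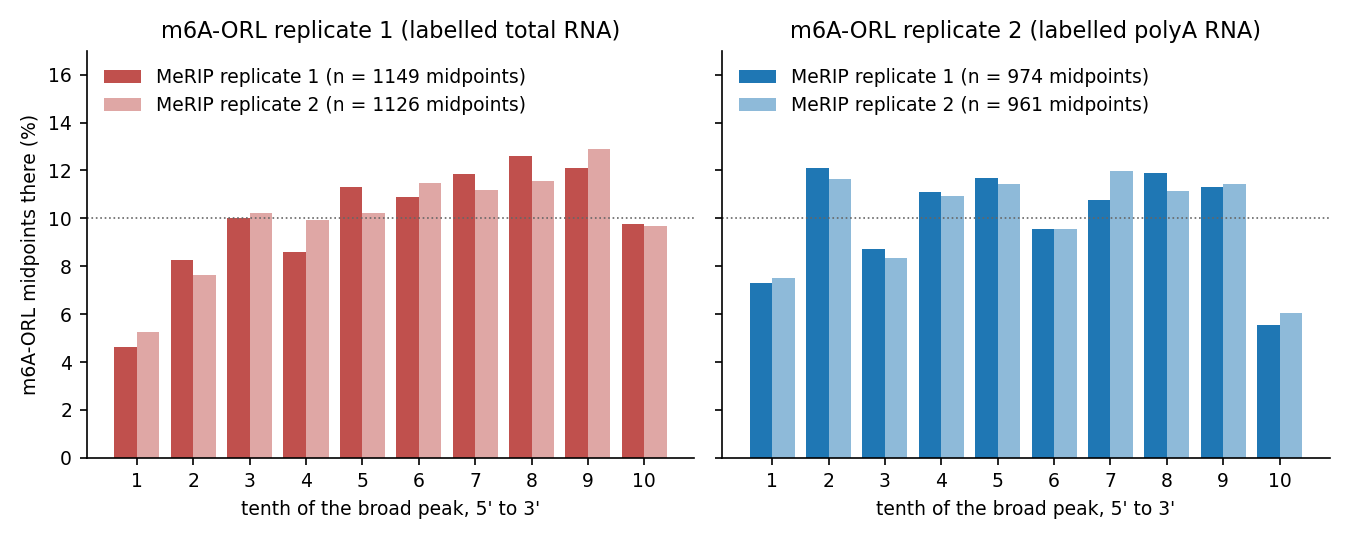
Share of m6A-ORL midpoints (y axis, percent) in each 10% step of the broad peak from 5′ to 3′ (x axis, blocks joined), for m6A-ORL replicate 1 (left) and replicate 2 (right); dark bars are broad peaks of MeRIP replicate 1, light bars those of replicate 2, and the dotted line marks an even spread of 10%. Replicate 1 is lowest in the first step, at 4.61% and 5.24%, and replicate 2 is low in the first and last steps.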

How the data were processed

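The deposited files are BED lists with 12 columns, 1 per captured library. The authors gave each peak a score that behaves as a p-value (0 to 0.0081, lower is better). The caller and cut-off behind it are, for the sources used here, not given, and it served only to rank peaks within a list. The submitters' processing notes list Trim Galore, STAR, HOMER and hg38 without a role. Read depth is unknown, so peak numbers limit the precision.

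Duplicate lines were removed (4, 3, 2 and 1). Overlap meant at least 1 nt on the same strand. Names came from RefSeq spans (GRCh38.p14) that held at least 90% of an ID's peak bases, overlaps being settled by strand and a 3-fold excess. This named 10639 of 13566 IDs (78.4%). No exon annotation was used. Intervals are exact Clopper-Pearson at 95% and cover counting error only. Differences between broad and other peaks were compared over the 2 m6A-ORL libraries by exact sign-flip permutation. The overlap code was checked on simulated peaks. Python 3.11.15, NumPy 2.4.6 and SciPy 1.17.1 were used.

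Genes were named by rule: the 10 longest broad peaks per list, the 10 with most m6A-ORL peaks, the 5 longest with none, the 3 nearest 1000 nt on each side, genes with at least 3 broad peaks, and members of 8 gene lists. Up to 4 examples a list were taken by length, and readthrough or doubtful names were left out. Members and lists were chosen with earlier results of these data known.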

Additional observations from a re-analysis of the deposited data

Results flagged for a closer look

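The difference in m6A-ORL peaks per kb between broad and other MeRIP peaks had opposite signs in the 2 chemical libraries, -0.2013 for replicate 1 (labelled total RNA) and 0.1377 for replicate 2 (labelled polyA RNA). The treatment protocol common to both gives oligo(dT) enrichment, so the RNA type of replicate 1 is uncertain. With 1 library each, this difference between the libraries was not tested. Against the other MeRIP peaks of the same genes the differences were 0.0423 and 0.0297 per kb, both positive.

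The m6A-ORL lists held peaks of 1000 nt or more of their own, 22 in replicate 1 and 19 in replicate 2, which enter the comparisons only as peaks inside MeRIP intervals. On a broad MeRIP peak lay 7 of the 22 and 14 of the 19, the same numbers for both MeRIP lists. On any MeRIP peak lay 17 of the 22 in both lists, and 19 and 18 of the 19. Of all m6A-ORL peaks, with median lengths of 142 and 149 nt, 9.95% and 12.5% lay on a broad peak of MeRIP replicate 1. An m6A-ORL peak of 1000 nt or more has more room to meet a MeRIP peak, so these shares are not directly comparable.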

How the results depend on the processing

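A length threshold of 800 nt gave a mean of 1588 broad peaks per list, 1500 nt gave 365, and 1000 nt of genomic span, introns included, gave 2899, against 995.5. In the same order, the share met by a broad peak of the other MeRIP list, chosen by the same rule, was 88.55%, 84.38% and 82.25%, and the share with a midpoint in the last 10% of the span 33.12%, 24.41% and 23.15%. That last share was 30.11% in protein-coding genes and 44.14% for the last 20%. The share met by any peak of the other MeRIP list was 94.35% by genomic span, 99.9% with the better-scored 50% of each list and 99.95% when 50% of the broad peak had to be covered. The share holding an m6A-ORL peak, 59.5% on average, was 70.62% at 1500 nt, 36.58% by genomic span and 38.83% with the better-scored 50% of each m6A-ORL list.

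The mean density difference changed sign with at least 50% of the m6A-ORL peak inside (0.08254 per kb), against other peaks of the same genes (0.03603) and with midpoints counted (0.07182). Leaving out each m6A-ORL library gave -0.2013 to 0.1377 (the positive value without replicate 1), and leaving out each MeRIP library gave -0.03374 to -0.02993. The cause was not tested. The other 46 values kept their direction and moved by less than 1 SD or, for counts of peaks, by less than 1.5 times. Midpoint counting, merging or leaving out overlapping peaks, counting overlapping m6A-ORL peaks once and leaving out short peaks were chosen after seeing the data. Without 1 MeRIP library no overlap between MeRIP lists can be computed. No paired analysis was possible because the replicate numbers are not stated to mark a shared culture across the 2 methods, so no replicate block was fitted. The sign-flip test, which pairs no samples by number, sets broad against other peaks within each m6A-ORL library.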

Other observations

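Some broad peaks were marked several times by 1 chemical library and never by the other. At least 3 separate stretches of m6A-ORL replicate 1 and 0 of replicate 2 stood in 28 broad peaks of MeRIP replicate 1 and 24 of MeRIP replicate 2. The opposite held for 18 and 17. In each MeRIP list, 95 broad peaks held at least 3 stretches of m6A-ORL replicate 1. At least 3 of m6A-ORL replicate 2 stood in 90 and 88. Over all broad peaks, 55.3% and 55.4% held a peak of m6A-ORL replicate 2, and 64.1% and 63.3% a peak of m6A-ORL replicate 1. Whether such 1-sided marking differed from that of broad peaks in general was not tested. Chosen after their values were seen, CCDC57 (chromosome 17, 82153669 to 82155675, minus strand) held 4 and 0 in 2007 nt and 4 and 0 in the 1977 nt of MeRIP replicate 2. MGA, a partner of the MYC network protein MAX, held 4 and 0 in 1529 and 1199 nt (chromosome 15). SNAPC4, a subunit of the complex that drives small nuclear RNA transcription, held 0 and 4 in 1881 nt of both lists, covering 31.8%.

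Genes with 3 broad peaks in a list were few, 6 gene IDs in MeRIP replicate 1 and 7 in replicate 2. Besides KMT2D they included TNRC18, with 1587, 2485 and 2066 nt in replicate 1 and 1378, 2485 and 2066 nt in replicate 2. RAI1, a chromatin-associated transcription regulator, had 1140, 2158 and 1949 nt in replicate 2.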
